A study of Mus musculus with 4 samples.

Results

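The genes described here were 8 genes of the mouse MHC class II region (H2-Aa, H2-Ab1, H2-Eb1, H2-DMa, H2-DMb1, H2-DMb2, H2-Oa and H2-Ob), the invariant chain gene Cd74 and the class II transactivator gene Ciita. They were taken by symbol from the deposited feature lists, where all 10 were present among 32285 genes, and no measured value was used to choose them. The class II region genes lie on chromosome 17 between positions 34092340 and 34316674 (GRCm38), Cd74 on chromosome 18 (60803848 to 60812652) and Ciita on chromosome 16 (10480059 to 10528418). Their levels were followed across marker-defined cell types and 3 macrophage states in single-cell libraries of mouse ascites. FVB female mice received Br-Luc ovarian tumor cells (p53-/-; brca1-/-; myc; Akt-myr) in the peritoneal cavity and were then given a control siRNA (siCont-LNA) or an siRNA against Fxr1 (siFXR1-LNA), each with locked nucleic acid bases and carried by jetPEI nanoparticles. Ascites was collected 6 weeks after the tumor cells were injected, red cells were lysed, and the remaining cells were run on a droplet 3′ kit that counts unique molecular identifiers (UMIs). There were 2 libraries per group, ascites of several mice was pooled, and nothing in the labels ties a library to a single animal, so p-values measure the spread between these samples only. The paper states that a siFXR1-LNA replicate with fewer reads and fewer cells was left out of its analysis. It does not name that replicate by number, and every siFXR1-LNA library was used here. All mice of both groups carried the tumor and received nanoparticles, and no library of tumor-free or untreated mice was compared.

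Fxr1, the targeted gene, did not go the way of the labels over all barcodes or in macrophages. Over all kept barcodes it stood at 55.8 and 33.9 UMIs per 1000000 UMIs (CPM) in the siCont libraries and at 103.9 and 71.8 CPM in those labelled siFXR1-LNA. With hemoglobin genes left out of the total it stood at 80.3 and 59.4 CPM against 115.8 and 80.0 CPM, and the groups overlapped. Within macrophages it stood at 66.7 and 63.3 CPM against 70.4 and 69.5 CPM. Over all kept barcodes and in macrophages the targeted gene was therefore not lower under the siFXR1-LNA label. Its level in tumor or mesothelial cells was not examined here, and the paper reports it lower in epithelial cells. Each direction given here is a direction between labels.

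The libraries held 36551 and 25324 barcodes (siCont) and 54665 and 17309 barcodes (siFXR1-LNA), with 78179267 to 113606837 UMIs in all. Hemoglobin genes took 29.5% and 41.1% of UMIs in the siCont libraries, against 10.0% and 9.11% in the siFXR1-LNA libraries, so the libraries differed in red cell RNA as they did in label. Pairs of libraries shared 575 to 2846 kept barcodes, which is 3.41% to 7.84% of the smaller library. Of the shared barcodes that had a type in both libraries, 5 to 22 of 39 to 90 had the same type. Levels are CPM over the summed UMIs of a type in a library, and in this unit fewer class II positive cells in a type and less RNA per cell give the same value.

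MHC class II molecules are pairs of an alpha and a beta chain that hold peptides from the endosomal pathway on the cell surface, where CD4 T cells read them. Dendritic cells, B cells and macrophages are the usual carriers. The invariant chain Cd74 escorts new pairs to the endosome, H2-DM exchanges its remnant for peptide, H2-O restrains H2-DM, and Ciita, which does not bind DNA itself, is recruited to class II promoters by factors that sit on the X and Y boxes. Ciita is in turn induced by interferon gamma in macrophages.

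The promoters are shown because the members are commonly described as 1 regulon, and because they differ in how plainly they carry these boxes. RefSeq windows from 250 bases before to 50 after the start (GRCm38.p6) were at hand for 7 of the 10 members. In the following stretches, written 5′ to 3′ along the gene, capitals mark matches to an X box core (AAC, 2 bases of any kind, ATG, 1 base of any kind and TG) and a Y box (GATTGG). These 2 motifs do not overlap each other and were chosen after the sequences had been seen.
H2-Eb1, chr17:34305767-34305822, plus strand: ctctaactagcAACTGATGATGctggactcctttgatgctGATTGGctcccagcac
H2-DMb1, chr17:34153089-34153144, plus strand: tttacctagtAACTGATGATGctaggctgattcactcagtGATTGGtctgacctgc
H2-DMb2, chr17:34145118-34145173, plus strand: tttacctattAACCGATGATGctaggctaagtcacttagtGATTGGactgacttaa
H2-Ob, chr17:34238807-34238862, plus strand: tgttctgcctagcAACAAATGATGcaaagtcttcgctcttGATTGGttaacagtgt
H2-Aa, chr17:34287857-34287912, minus strand: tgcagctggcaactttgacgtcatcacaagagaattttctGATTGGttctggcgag
H2-Oa, chr17:34092295-34092350, plus strand: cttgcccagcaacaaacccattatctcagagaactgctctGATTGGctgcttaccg

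The X and Y boxes lay 27 to 30 bases apart in H2-Eb1, H2-DMb1, H2-DMb2 and H2-Ob. H2-Aa and H2-Oa matched the Y box letters, with no match to the letters of the X box core upstream. A miss of these chosen letters does not show that an X box is absent. Neither H2-DMa window held the X box core. Searched on both strands over 32851 windows of the same length, the X box core was present in 0.566% and the Y box in 16.1%. An X box core followed by a Y box at 25 to 32 bases on the same strand was present in 5 windows, those of the 4 members above and of H2-Eb2, another class II beta gene. The shown stretches of H2-DMb1 and H2-DMb2 were the same at 47 of 56 bases (83.9%). These are matches of letters and were not tested as binding sites.

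Type 1 and type 2 dendritic cells carried the most class II RNA, mature dendritic cells, B cells and part of the macrophages came next, and macrophages with Nos2 carried little. The summed level of the 10 genes in type 2 dendritic cells, the class that presents mainly to CD4 T cells, was 59178 and 69112 CPM in the siCont libraries and 54428 and 66351 CPM in the siFXR1-LNA libraries. Type 1 dendritic cells, the Xcr1 class that cross-presents, stood at 49516 and 58496 CPM against 48517 and 64733 CPM. These 2 types overlapped with each other and with no other type. Mature dendritic cells (Ccr7, Fscn1), which reshape antigen presentation as they migrate, were lower at 23391, 21026, 16642 and 28478 CPM in the order siCont 1, siCont 2, siFXR1-LNA 1, siFXR1-LNA 2.

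B cells had 20630 and 23851 CPM in the siCont libraries and 9159 and 18978 CPM in the siFXR1-LNA libraries. Plasmacytoid dendritic cells, of which there were 4 to 18 per library, had 5708 to 9026 CPM and were not tested. T cells, which should lack class II in the mouse, had 2558, 1492, 628 and 629 CPM, and neutrophils had 4389, 813, 636 and 955 CPM. Mature dendritic cells, B cells, macrophages outside the Nos2 and Lyve1 states, Lyve1 macrophages and plasmacytoid dendritic cells formed a chain in which each neighbour in the order overlapped the next in its range over libraries. Mast cells, neutrophils, tumor or mesothelial cells, T cells, NK cells and hemoglobin-dominated barcodes had the lowest levels. Within the siFXR1-LNA libraries these ran from 405 to 1090 CPM, and Nos2 macrophages, at 1511 and 1621 CPM, lay above each of them.

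The members did not all follow this order. H2-Ob was highest in B cells, at 188 to 374 CPM, above type 1 dendritic cells at 97.0 to 187 CPM with no overlap. H2-Oa was highest in type 2 dendritic cells (307 to 418 CPM), then in type 1 dendritic cells (238 to 264 CPM), then in B cells (92.5 to 174 CPM). H2-DMb1 led in type 1 dendritic cells, at 516 to 989 CPM, and there overlapped type 2 dendritic cells. Ciita was at 194 to 393 CPM in these 2 dendritic cell types and at 59.2 to 105 CPM in B cells, and from mature dendritic cells downward each neighbour overlapped the next.

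**Figure D1:**
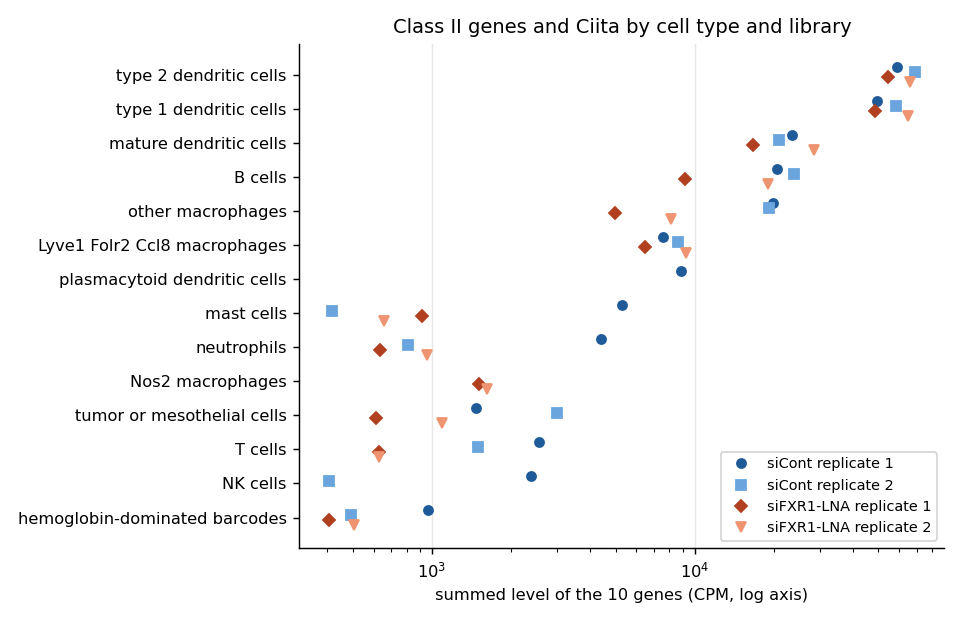
Summed level of the 10 genes (CPM, log axis) in each cell type, 1 point per library, with libraries under 10 cells of a type left out. Type 1 and type 2 dendritic cells sit between 48517 and 69112 CPM, and Nos2 macrophages, at 1511 and 1621 CPM, lie below the other macrophage states and above the T cells (628 and 629 CPM) and neutrophils (636 and 955 CPM) of the same libraries.

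Macrophages were 3547 and 1635 cells in the siCont libraries and 2826 and 3123 cells in the siFXR1-LNA libraries, all with Cd79a at 0. They were divided by rule into cells with at least 2 UMIs of Nos2, the inducible nitric oxide synthase, then cells with at least 3 summed UMIs of Lyve1, Folr2 and Ccl8, which mark a tissue-resident type of macrophage, then the others. Nos2 macrophages were 0 of 3547 and 0 of 1635 cells in the siCont libraries, which allows a share of up to 0.0846% and 0.183%. They were 37.3% (exact 95% interval 35.5 to 39.1) and 35.5% (33.9 to 37.3) in the siFXR1-LNA libraries. Lyve1 macrophages were 37.0% and 33.0% against 3.26% and 8.998%, and the others were 63.0% and 67.0% against 59.5% and 55.5%. For shares of 2 libraries against 2 the exact permutation test cannot go below p = 0.333, which is the p of each of these differences.

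Over all macrophages, class II RNA was lower under the siFXR1-LNA label, from 2.11-fold (H2-DMa) to 3.70-fold (Ciita) among the members called. The summed level was 13997 and 14910 CPM in the siCont libraries and 3388 and 5292 CPM in the siFXR1-LNA libraries, and the groups did not overlap. In edgeR's quasi-likelihood test 9 of the 10 members were lower at an adjusted p under 0.05 and none was higher, where 8.77% of the 13790 genes tested were called lower. The median log2 fold change of the members was −1.51, against 0.005 for all genes tested.

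Ciita, the regulator, had the largest fitted change among the members. It stood at 43.4 and 42.2 CPM in the siCont libraries and at 6.56 and 13.3 CPM in the siFXR1-LNA libraries. Its log2 fold change was −1.89 ± 0.32 (SE; edgeR adjusted p = 0.0243). H2-Aa, the alpha chain of the I-A molecule, was at 2567 and 2574 CPM against 628 and 953 CPM (−1.49 ± 0.25, edgeR adjusted p = 0.0235). Its partner H2-Ab1 was at 1908 and 2058 CPM against 553 and 728 CPM (−1.42 ± 0.21, edgeR adjusted p = 0.0176). H2-Eb1, the beta chain of I-E, was at 1918 and 1973 CPM against 407 and 610 CPM (−1.73 ± 0.24, edgeR adjusted p = 0.0165). In all 4 genes the siCont pair lay close together, and siFXR1-LNA replicate 1 was the lowest library.

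Cd74 was at 7152 and 7827 CPM against 1677 and 2821 CPM (−1.53 ± 0.32, edgeR adjusted p = 0.0375). The H2-DM genes moved by unequal amounts. H2-DMa went from 203 and 200 CPM to 70.4 and 94.8 CPM (−1.07 ± 0.17), H2-DMb1 from 190 and 221 CPM to 42.7 and 65.7 CPM (−1.72 ± 0.24), and H2-DMb2 from 7.74 and 6.68 CPM to 2.24 and 3.16 CPM (−1.20 ± 0.26), with edgeR adjusted p of 0.020, 0.0155 and 0.0412. H2-Ob was at 5.43 and 6.18 CPM against 1.51 and 1.80 CPM (−1.59 ± 0.27, edgeR adjusted p = 0.024). T cells, which should lack class II, had H2-Ob at 6.83 to 13.6 CPM and H2-DMb2 at 0 to 18.2 CPM over the libraries. Macrophages lay within or below these ranges, and the part of RNA from other cells in both changes was not tested. H2-Oa, at 9 to 48 UMIs per library, was the member not called (−1.15 ± 0.55, edgeR adjusted p = 0.206). The count of 9 changed with the library left out: it was 8 without siCont replicate 1, 6 without siCont replicate 2, 1 without siFXR1-LNA replicate 1 and 4 without siFXR1-LNA replicate 2. In these fits the lone library of a group was assumed to vary like the pair of the other group. The fold changes kept their direction in each, with Ciita at −1.90, −1.87, −1.46 and −2.47 and H2-Aa at −1.53, −1.45, −1.21 and −1.79 in the same order. The count was 1 when cells were thinned to 1000 UMIs before the gates were set.

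The level was also lower outside the Nos2 and Lyve1 states. In the other macrophages the summed level was 19865 and 19264 CPM in the siCont libraries and 4980 and 8143 CPM in the siFXR1-LNA libraries. Ciita was at 68.0 and 61.9 CPM against 10.7 and 21.0 CPM (−1.93 ± 0.29, edgeR adjusted p = 0.021). H2-Aa was at 3661 and 3343 CPM against 949 and 1508 CPM (−1.42 ± 0.26, edgeR adjusted p = 0.0338). Cd74 was at 9968 and 10066 CPM against 2504 and 4337 CPM (−1.46 ± 0.32, edgeR adjusted p = 0.0491). H2-DMb1 was at 271 and 298 CPM against 59.5 and 97.0 CPM (−1.77 ± 0.24, edgeR adjusted p = 0.0167).

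Of the 10 members, 8 were lower in the other macrophages (5.55% of the 12779 genes tested were called lower), and their median was −1.49 against 0.0063 for all genes. H2-DMb2 (−1.22 ± 0.28, edgeR adjusted p = 0.0536) and H2-Oa (−1.34 ± 0.71, edgeR adjusted p = 0.273) did not pass. The count of 8 was 7 without siCont replicate 1, 6 without siCont replicate 2, 0 without siFXR1-LNA replicate 1 and 2 without siFXR1-LNA replicate 2. It was 1 with cells thinned to 1000 UMIs before gating.

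**Figure D2:**
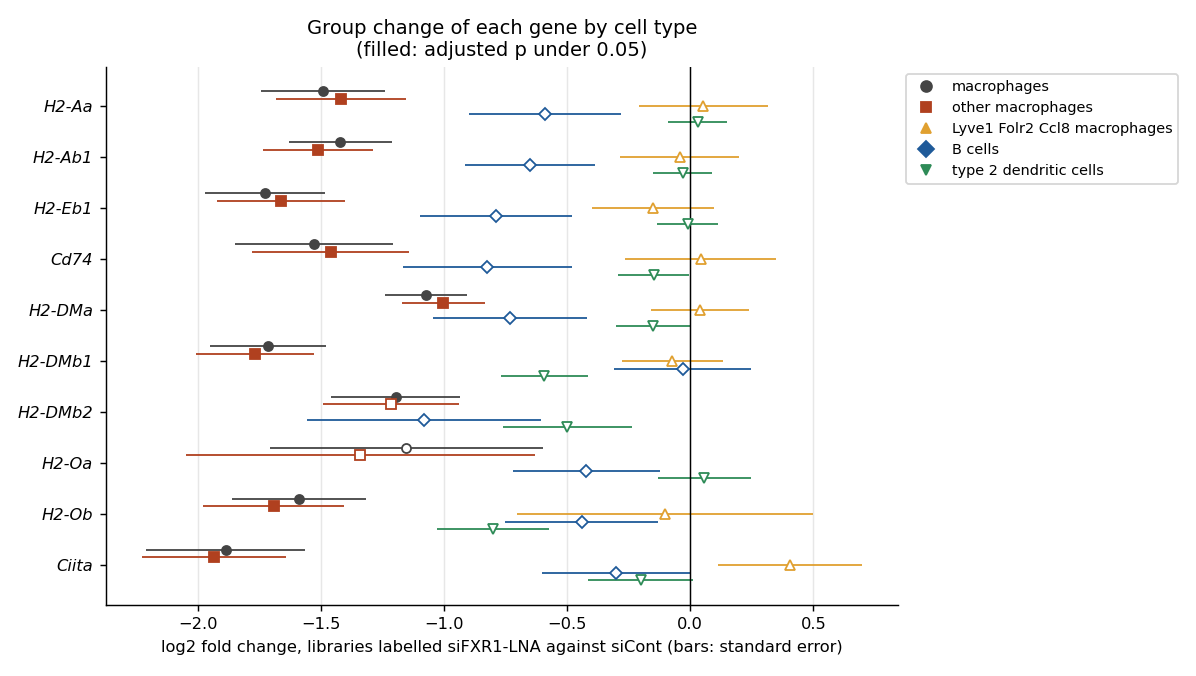
Log2 fold change of each of the 10 genes between the libraries labelled siFXR1-LNA and siCont (bars are the standard error), in macrophages, 2 of their states, B cells and type 2 dendritic cells, with filled symbols for an adjusted p under 0.05. Macrophages and other macrophages lie at −1.93 (Ciita) and above but below 0 for every gene, and Lyve1 macrophages and type 2 dendritic cells lie nearer to 0.

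The other macrophages were a mixture, and its makeup differed between the labels. Cells with at least 2 UMIs of Ace, Adgre4 and Cd300e, genes of the patrolling type of monocyte, were 9.04% and 20.6% of them in the siCont libraries, against 1.67% and 2.71% in the siFXR1-LNA libraries. Their class II sum was 28600 and 32625 CPM against 3103 and 5506 CPM. Cells with Ccr2, the receptor by which monocytes are recruited, were 37.8% and 43.7% against 25.2% and 24.7%, with class II sums of 27297 and 20648 CPM against 13083 and 18108 CPM. Cells with Alox15 and Prg4, genes of resident peritoneal macrophages, had 6570 and 1583 CPM against 3701 and 6375 CPM, so that the labels overlapped there.

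The cells that met none of these conditions and had no Nos2 UMI had 15149 and 15954 CPM in the siCont libraries and 3075 and 5230 CPM in the siFXR1-LNA libraries. Of the cells without the genes above, those with 1 Nos2 UMI, just outside the Nos2 rule, were 15.5% and 13.7% of the other macrophages in the siFXR1-LNA libraries and had 1158 and 2152 CPM. The siCont libraries held 3 such cells in all, 2 in replicate 1 and 1 in replicate 2. Of these 5 classes, the monocyte-gene, Ccr2 and remaining cells had higher class II sums in both siCont libraries than in either siFXR1-LNA library. These splits are descriptions, with no test.

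Markers of other types also differed within the other macrophages. The macrophage list of 9 genes summed to 12293 and 11537 CPM in the siCont libraries and 6077 and 7991 CPM in the siFXR1-LNA libraries, with 9 of 9 detected. The list of 6 type 2 dendritic cell genes summed to 315 and 333 CPM against 237 and 250 CPM, with 6, 6, 5 and 6 detected. The type 1 dendritic cell list summed to 141 and 161 CPM against 74.5 and 85.4 CPM, with 6, 6, 5 and 5 of 6 detected. The B cell list, with Cd79a at 0 by rule, summed to 68.1 and 58.9 CPM against 14.2 and 39.1 CPM, with 6 of 7 detected. Lists of other types moved more. The 8 neutrophil genes summed to 60.3 and 75.3 CPM against 307 and 300.5 CPM, with 6, 7, 8 and 8 detected, and the 4 platelet genes to 355 and 773 CPM against 1750 and 1586 CPM, with 3, 4, 4 and 4 detected. The 8 genes of mast cells and basophils summed to 1146 and 299 CPM against 43.97 and 70.3 CPM, with 8, 7, 8 and 7 detected. The part of these markers, and of hemoglobin, in the class II difference was not tested.

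No class II member was called between the labels in Lyve1 macrophages, whose ranges overlapped. Their sum was 7589 and 8635 CPM in the siCont libraries and 6450 and 9279 CPM in the siFXR1-LNA libraries, where the state held 92 and 281 cells. Ciita was at 16.5 and 13.9 CPM against 13.9 and 22.5 CPM (log2 fold change 0.41 ± 0.29). H2-Aa was at 1372 and 1467 CPM against 1158 and 1677 CPM (0.05 ± 0.26), and Cd74 at 4077 and 4602 CPM against 3403 and 5219 CPM (0.04 ± 0.31). Of the 10 members 8 could be tested in edgeR and 0 were called, at an unadjusted p under 0.05 also 0 and with DESeq2 0 (0.0903% of the 11070 genes tested were called). A p that misses the threshold does not show that the levels were equal, and the standard errors of the members tested ran from 0.20 to 0.60.

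The difference between the states was tested itself, as an interaction of label and state with each library as a term, a comparison added after the data had been seen. The group change was lower in the other macrophages than in Lyve1 macrophages for 7 members (1.51% of the 13075 genes tested were called lower). For Ciita the difference of the changes was −2.20 ± 0.27 on the log2 scale (edgeR adjusted p = 2.7e-06), for Cd74 −1.50 ± 0.13 (edgeR adjusted p = 5.5e-09) and for H2-Aa −1.46 ± 0.14 (edgeR adjusted p = 2.9e-08). H2-Ab1 (−1.46), H2-Eb1 (−1.51), H2-DMa (−1.01) and H2-DMb1 (−1.63) were called likewise. H2-DMb2, H2-Oa and H2-Ob, with 0 to 30 UMIs per library in Lyve1 macrophages, were not. The spread in this fit was largely shared over genes, so its p-values rest only in small part on each gene's spread between libraries. The count was 6 or 7 with any 1 library left out.

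Seen within each library, the order of the states turned with the label. In the siCont libraries Lyve1 macrophages were lower than the other macrophages, at 7589 against 19865 CPM and 8635 against 19264 CPM. In the siFXR1-LNA libraries they were higher, at 6450 against 4980 CPM and 9279 against 8143 CPM. When macrophages outside the Nos2 state were binned by their summed Lyve1, Folr2 and Ccl8 UMIs (0, 1, 2, 3 to 5, 6 or more), class II fell from 22205 to 6002 CPM and from 21788 to 6444 CPM over the bins of the siCont libraries. In the siFXR1-LNA libraries it went from 4752 to 8745 CPM and from 7668 to 8609 CPM. Across all 4 libraries, with library as a term, 3 members were lower in Lyve1 macrophages than in the others (9.01% of the 13268 genes tested were called lower): H2-DMb2 (−1.89 ± 0.23, edgeR adjusted p = 0.00013), H2-Oa (−2.02 ± 0.46, edgeR adjusted p = 0.00951) and Ciita (−1.52 ± 0.30, edgeR adjusted p = 0.00365). For Ciita this held within the siCont libraries only, at 16.5 against 68.0 CPM and 13.9 against 61.9 CPM. Within the siFXR1-LNA libraries it was higher in Lyve1 macrophages, at 13.9 against 10.7 CPM and 22.5 against 21.0 CPM. H2-DMb2 averaged 2.34 CPM in Lyve1 and 7.62 CPM in the other macrophages, against 7.01 CPM in T cells and 12.9 CPM in neutrophils. H2-Oa averaged 0.385 and 1.90 CPM, against 6.23 and 8.22 CPM. For these genes neither state stood clear of cells that should lack class II. This count of 3 was 1 without siCont replicate 1 and 10 without siFXR1-LNA replicate 2.

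**Figure D3:**
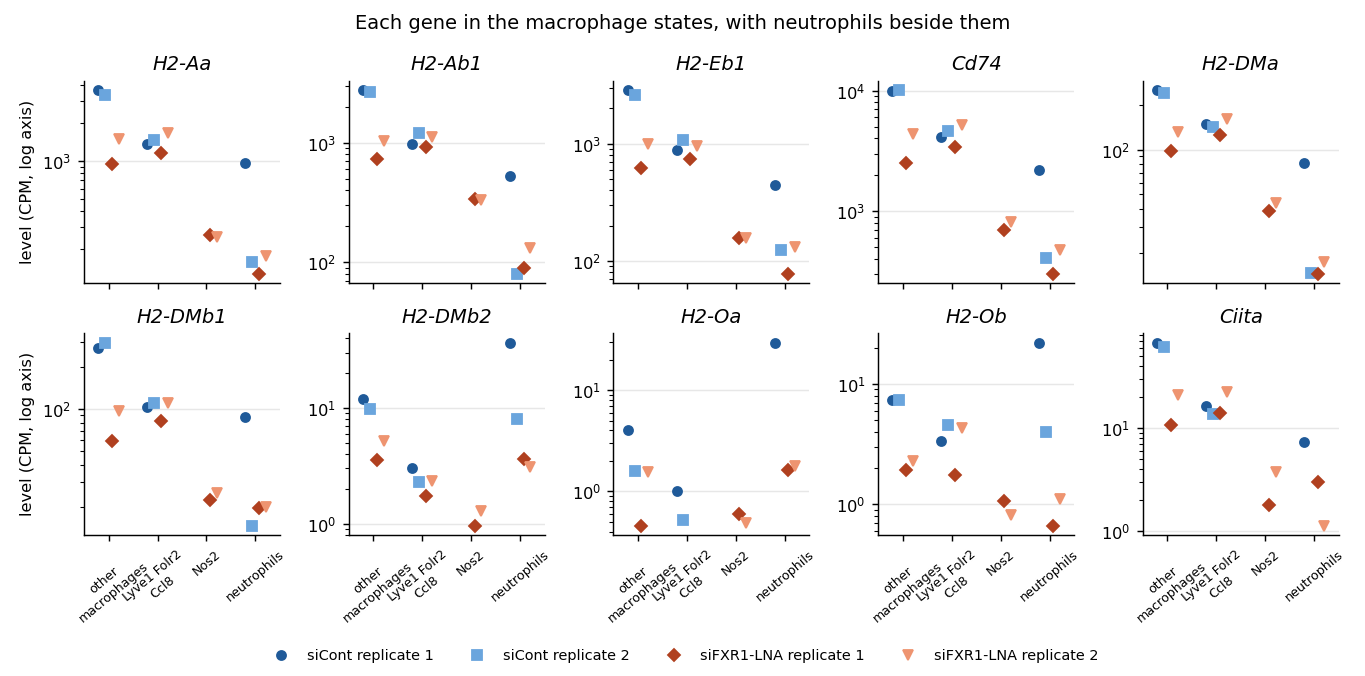
Level of each of the 10 genes (CPM, log axis) in the 3 macrophage states and in neutrophils, 1 point per library, with values of 0 not drawn. Other macrophages split by label, Lyve1 macrophages do not, and Nos2 macrophages, present only in the siFXR1-LNA libraries, lie below both for H2-Aa, H2-Eb1, Cd74 and Ciita.

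Nos2 macrophages, measured in the siFXR1-LNA libraries only, had the lowest class II level of the macrophages. Their sum was 1511 and 1621 CPM, against 4980 and 8143 CPM in the other macrophages of the same libraries. Ciita was at 1.78 and 3.72 CPM (15 and 46 UMIs), which overlaps the 3.41 and 4.19 CPM of T cells in those libraries. Ciita was lower than in the other macrophages by a log2 fold change of −2.60 ± 0.46 (edgeR adjusted p = 0.0017). H2-Eb1 stood at 157 and 155 CPM (−2.50 ± 0.35), H2-Aa at 255 and 249 CPM (−2.39 ± 0.34) and Cd74 at 693 and 810 CPM (−2.30 ± 0.34), with edgeR adjusted p from 0.000312 to 0.000434. H2-Ab1 stood at 340 and 332 CPM and fell by less (−1.53 ± 0.32, edgeR adjusted p = 0.00461).

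In all, 8 members were lower in Nos2 than in the other macrophages (9.16% of the 13268 genes tested were called lower), with H2-Ob (−1.17 ± 0.47, edgeR adjusted p = 0.0969) and H2-Oa (−0.64 ± 0.57, edgeR adjusted p = 0.472) not called. The median was −1.78, against −0.03 over all genes. The count was 7 or 8 with any 1 library left out and 4 with cells thinned to 1000 UMIs before gating. By Nos2 UMIs (0, 1, 2 to 4, 5 to 9, 10 or more), the summed level over all macrophages was 5993, 1989, 1800, 1275 and 1260 CPM in siFXR1-LNA replicate 1. In siFXR1-LNA replicate 2 it was 9253, 4033, 1499, 1557 and 1839 CPM. The step came between 0 and 2 Nos2 UMIs, with little further fall above 5 UMIs in replicate 1 and none in replicate 2. The 19 and 42 cells that met the Lyve1 condition as well as the Nos2 condition, counted as Nos2 macrophages, had 1148 and 2230 CPM, below the 6450 and 9279 CPM of Lyve1 macrophages.

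Cell by cell, with each cell thinned to 1000 UMIs, most siCont macrophages outside the other states carried class II and most such siFXR1-LNA macrophages carried little. The median class II count of the other macrophages was 13 and 12 UMIs in the siCont libraries and 1 and 2 UMIs in the siFXR1-LNA libraries. Cells with at least 10 class II UMIs were 58.2% and 53.9% against 20.4% and 26.1%, a difference of −32.8 percentage points (exact permutation p = 0.333, the smallest 2 against 2 allow). Cells with none were 6.95% and 16.0% against 31.6% and 24.7%. The upper quartile was 28 and 30 UMIs against 7 and 10 UMIs. Over all macrophages the difference in the share of cells with at least 10 class II UMIs was −29.3 percentage points (exact permutation p = 0.333).

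Lyve1 macrophages had medians of 4 and 3 UMIs in the siCont libraries and 4 and 7 UMIs in the siFXR1-LNA libraries. Nos2 macrophages had a median of 0 in both libraries, and 52.7% and 51.4% of them had none. Cells with an H2-Aa UMI were 13.4% and 12.3% of thinned Nos2 macrophages (38.7% and 45.3% unthinned), 11.5% and 11.5% of T cells and 8.97% and 10.4% of neutrophils in the same libraries. Before thinning, the median depths were 7688 and 11080 UMIs in Nos2 macrophages and 4805 and 6716 UMIs in the other macrophages. Cells with an H2-Ab1 UMI were 24.0% and 23.3% of thinned Nos2 macrophages, against 1.92% and 6.92% of T cells and 6.93% and 8.96% of neutrophils. In level, H2-Aa at 255 and 249 CPM in Nos2 macrophages compares with 116 and 114 CPM in T cells, and H2-Ab1 at 340 and 332 CPM with 85.4 and 76.8 CPM. Nos2 macrophages thus held more H2-Ab1 than cells that should lack it. In type 2 dendritic cells the medians were 59, 69, 52 and 61 UMIs, and 98.3% to 100% of cells had at least 10.

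**Figure D4:**
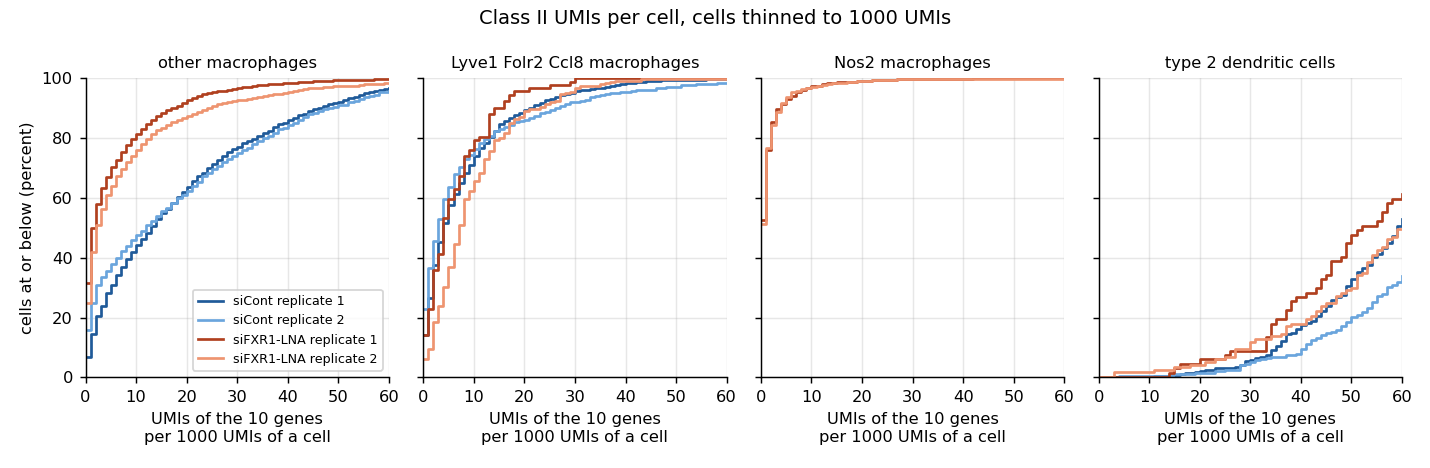
Share of cells (percent) at or below each number of class II UMIs, with each cell thinned to 1000 UMIs, in 4 cell types, 1 line per library. The siFXR1-LNA lines of the other macrophages rise early (medians 1 and 2, against 13 and 12), while the lines of type 2 dendritic cells lie together.

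Ciita was seen in few cells, and in macrophages those cells had more class II. At 2000 UMIs per cell, 12.6% and 11.6% of the other macrophages of the siCont libraries and 2.32% and 4.30% of those of the siFXR1-LNA libraries had a Ciita UMI. Their median count of the other 9 genes, 59 and 60 against 36 and 40, compares with 26 and 21 against 3 and 4 in cells without a Ciita UMI. Type 2 dendritic cells had no such gap, with 117 and 142 UMIs in siCont cells with Ciita and 118 and 137 in siCont cells without. A cell without a Ciita UMI may still hold the transcript, and the split also sorts cells within a mixed class, so it is given as a description.

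B cells had lower values of most members in siFXR1-LNA replicate 1 but no call. H2-Aa was at 3387 and 3898 CPM in the siCont libraries and at 1746 and 3408 CPM in the siFXR1-LNA libraries. Cd74 was at 11786 and 13612 CPM against 4715 and 10591 CPM. Ciita was at 82.7 and 105 CPM against 59.2 and 102 CPM, and H2-DMb1 at 72.2 and 81.1 CPM against 59.95 and 99.4 CPM. In siFXR1-LNA replicate 2, Ciita fell between the siCont values and H2-DMb1 lay above both.

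The log2 fold changes of the members in B cells ran from −1.08 ± 0.47 (H2-DMb2) to −0.03 ± 0.28 (H2-DMb1), with a median of −0.62. In edgeR 0 of 10 were called, 3 at an unadjusted p under 0.05 (H2-Eb1, H2-Ab1 and Cd74), and 1.01% of the 11821 genes tested were called. DESeq2 called 0, and edgeR without a filter on low counts called 3. Some other B cell genes were lower in the same library: Ms4a1, which encodes CD20, was at 673 and 774 CPM against 168 and 391 CPM, and Cd79a at 2285 and 2965 CPM against 1157 and 1979 CPM. The immunoglobulin heavy chain genes did not follow them: Ighd was at 206 and 385 CPM against 319 and 395 CPM, and Ighm at 1220 and 2052 CPM against 1965 and 933 CPM. Retnlg, a neutrophil gene, was at 2.78 and 40.5 CPM against 160 and 137 CPM in B cells. The part of these in the B cell values was not tested.

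Between the labels, 1 call was made over the 3 dendritic cell types tested, and it was toward a higher level. In type 2 dendritic cells H2-Aa was at 11070 and 12622 CPM in the siCont libraries and 11110 and 13021 CPM in the siFXR1-LNA libraries (0.03 ± 0.12), and Ciita at 333 and 393 CPM against 245 and 375 CPM (−0.20 ± 0.21). edgeR called 0 of 10 (1.79% of the 9362 genes tested were called), with 2 at an unadjusted p under 0.05, and DESeq2 called 0. These were H2-Ob, at 141 and 157 CPM against 65.7 and 98.9 CPM (−0.80 ± 0.23, edgeR adjusted p = 0.151), and H2-DMb1, at 545 and 726 CPM against 400 and 439 CPM (−0.59 ± 0.18, edgeR adjusted p = 0.163). Without a filter on low counts, edgeR called 3.

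In type 1 dendritic cells edgeR and DESeq2 called 0 of 10, with 0 at an unadjusted p under 0.05 (0.519% of the 7710 genes tested were called), and the fold changes ran from −0.38 (H2-Ob) to 0.23 (H2-DMb2). Ciita there was at 333 and 339 CPM against 194 and 340 CPM, low in siFXR1-LNA replicate 1 only, where the type held 45 cells. In mature dendritic cells H2-DMa was the single member called, and it was higher, at 94.2 and 91.8 CPM against 203 and 216 CPM (1.08 ± 0.27, edgeR adjusted p = 0.0296; 2.86% of the 6298 genes tested were called higher). That call was lost with DESeq2, without a filter on low counts, without siCont replicate 2 and without either siFXR1-LNA replicate.

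Whether the macrophage change differed from that of the other presenting cells was tested directly. Against type 2 dendritic cells 8 members changed more in macrophages (2.69% of the 13548 genes tested were called lower). The difference of the changes was −1.62 ± 0.21 for Ciita (edgeR adjusted p = 1.4e-11), −1.68 ± 0.27 for H2-Eb1 (edgeR adjusted p = 5.3e-08) and −1.35 ± 0.30 for Cd74 (edgeR adjusted p = 0.000354). In this fit the spread was shared over genes, so these p-values do not rest on the spread of each gene between libraries. H2-Ob and H2-DMb2 were the members not called. The count of 8 was 3 without siFXR1-LNA replicate 1 and 3 without siFXR1-LNA replicate 2.

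Against B cells 2 members were called (1.67% of the 14443 genes tested were called lower): H2-DMb1, by −1.68 ± 0.25 (edgeR adjusted p = 0.00304), and Ciita, by −1.64 ± 0.25 (edgeR adjusted p = 0.00327). H2-Aa (−0.87 ± 0.31) and Cd74 (−0.66 ± 0.36) did not pass. This count was 4 without siCont replicate 1, 6 without siCont replicate 2, 5 with DESeq2 and 0 with cells thinned to 1000 UMIs before gating.

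The beta chain genes of H2-DM were used in different proportions by the cell types. H2-DMb2 took 86.8% and 86.7% of the summed H2-DMb1 and H2-DMb2 UMIs in B cells of the siCont libraries, and 67.1% (60.9 to 72.8, exact 95% interval, 252 UMIs) and 79.5% (76.3 to 82.4) in the siFXR1-LNA libraries. It took 59.3% to 78.1% in mature dendritic cells, 42.7% to 56.5% in type 2 dendritic cells and 11.8% to 25.9% in type 1 dendritic cells. In the other macrophages it took 4.26% and 3.17% against 5.58% and 5.08%. The share was thus at most 5.58% in the 3 macrophage states and at least 67.1% in B cells. These genes are close paralogs, and reads that fit both are not counted for either by this pipeline. Only their promoter stretches were compared above, and how alike their transcripts are was not tested.

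The share of H2-Ab1 among H2-Aa and H2-Ab1 UMIs was steadier, and among the types given here it was highest in Nos2 macrophages. It was 42.9%, 44.2%, 43.5% and 40.9% in the other macrophages, 41.6%, 42.5%, 42.6% and 39.7% in type 2 dendritic cells, and 31.7% to 35.5% in B cells. In Nos2 macrophages it was 57.1% (55.7 to 58.5, of 5020 UMIs) and 57.1% (55.9 to 58.2, of 7181 UMIs). T cells of the same libraries, used as background, had 42.4% (29.6 to 55.9, of 59 UMIs) and 40.3% (34.4 to 46.4, of 273 UMIs). The share in Nos2 macrophages was above these values, though the intervals overlapped in siFXR1-LNA replicate 1. More H2-Ab1 than H2-Aa was not particular to the Nos2 state. The class with 1 Nos2 UMI had 258 against 189 CPM in siFXR1-LNA replicate 1 and 369 against 303 CPM in replicate 2. Alox15 and Prg4 cells had it in siCont replicate 2 only, at 255 against 235 CPM. Mature dendritic cells were at the other end, with 24.4% and 24.7% against 29.8% and 28.0%. Intervals cover counting error only. FVB mice carry another H2 haplotype than the reference strain, and how many reads of each gene aligned was not tested.

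**Figure D5:**
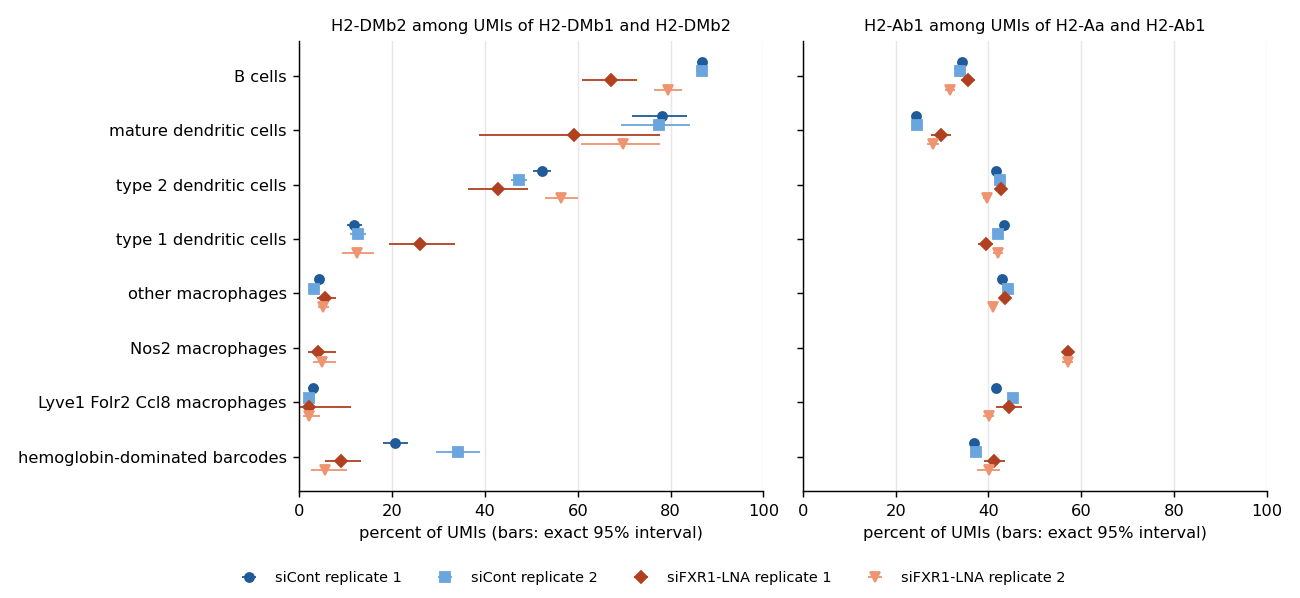
Share of H2-DMb2 among H2-DMb1 and H2-DMb2 UMIs (left) and of H2-Ab1 among H2-Aa and H2-Ab1 UMIs (right), in percent, by cell type and library, with exact 95% intervals. H2-DMb2 is at most 5.58% in the macrophage states and up to 86.8% in B cells, and H2-Ab1 is highest, among the types plotted, in Nos2 macrophages at 57.1%.

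H2-O is made of H2-Oa and H2-Ob, and macrophages had little of either. In B cells H2-Oa was at 144 and 174 CPM against 92.5 and 160 CPM and H2-Ob at 263 and 374 CPM against 188 and 310 CPM. In type 2 dendritic cells H2-Oa was at 321 and 385 CPM against 307 and 418 CPM. In the other macrophages H2-Oa had 4.02, 1.58, 0.453 and 1.54 CPM and H2-Ob 7.31, 7.30, 1.93 and 2.27 CPM. These values lay within or below the ranges of T cells, at 3.41 to 9.12 CPM for H2-Oa and 6.83 to 13.6 CPM for H2-Ob. H2-Eb2, the class II gene whose promoter window shared the X and Y boxes, was at 82.1 and 80.4 CPM against 46.2 and 102 CPM in B cells and at 0.162 to 0.412 CPM in the other macrophages.

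Irf1, Irf4, Socs1, Prdm1 and Jak2, from the list of Ciita regulators, differed between the labels in macrophages, where 8.77% of all genes tested were called lower and 8.67% higher. Irf1, an activator of Ciita, was at 79.2 and 69.3 CPM in the siCont libraries and at 25.7 and 36.9 CPM in the siFXR1-LNA libraries (−1.03 ± 0.19, edgeR adjusted p = 0.0275). Irf4 (−2.52) and Socs1, a feedback inhibitor of cytokine signalling (−1.07), were also lower. Prdm1, which encodes Blimp1, a repressor of Ciita (1.29), and Jak2 (0.67) were higher. In the other macrophages, which leave out the Nos2 cells, Irf1 (−1.20), Irf4 (−2.16) and Socs1 (−1.78) were lower again, while Prdm1 (0.25 ± 0.27, edgeR adjusted p = 0.576) and Jak2 (0.48 ± 0.13, edgeR adjusted p = 0.0793) were not called. Ifngr1 and Ifngr2, the receptor genes for interferon gamma, were not called (−0.24 and 0.00).

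Socs1 was also lower in type 2 dendritic cells, where no class II member was called. There it was at 29.7 and 39.9 CPM against 8.95 and 5.21 CPM (−2.43 ± 0.42, edgeR adjusted p = 0.0399). Of the 12 regulators 2 were lower and 3 higher in Nos2 than in the other macrophages, where 9.16% of all genes tested were called lower and 9.68% higher. Irf4 (−2.74 ± 0.44) and Ifngr1 (−0.65 ± 0.14, edgeR adjusted p = 0.00477) were lower, and Prdm1 (1.36 ± 0.23, edgeR adjusted p = 0.00099), Irf8 (0.53 ± 0.12, edgeR adjusted p = 0.0091) and Jak2 (0.39 ± 0.11, edgeR adjusted p = 0.0261) were higher. Prdm1 stood at 18.2 and 17.2 CPM in Nos2 macrophages and at 6.23 and 9.34 CPM in the other macrophages of those libraries.

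Of the 7 genes of the promoter complex 1 was lower and 1 higher in macrophages, where 8.77% and 8.67% of all genes were. Nfya, a subunit of the factor that binds the Y box, was at 35.7 and 33.9 CPM against 12.2 and 14.7 CPM (−1.15 ± 0.13, edgeR adjusted p = 0.0118). Rfxap, of the complex on the X box, was at 17.9 and 21.0 CPM against 30.0 and 30.0 CPM (0.84 ± 0.15, edgeR adjusted p = 0.0253). In the other macrophages Nfya was lower (−0.79 ± 0.17, edgeR adjusted p = 0.045) and Rfxap was not called (0.36 ± 0.14, edgeR adjusted p = 0.156). Of 9 loading and lysosomal genes Ifi30, a thiol reductase, was lower (−0.78 ± 0.17, edgeR adjusted p = 0.0414). Ctsl, a cathepsin, was higher, at 374 and 399 CPM against 1532 and 1403 CPM (2.14 ± 0.18, edgeR adjusted p = 0.00701). Ctsl was higher in type 2 dendritic cells too, at 66.9 and 27.1 CPM against 469 and 226 CPM.

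In macrophages 8.77% of all genes tested were called lower. All 3 surface turnover genes were tested and 2 were lower, March8, a ligase for class II (−0.54), and Cd83, which slows class II turnover (−1.33). Among 9 genes of the class I pathway 2 were lower, Nlrc5, the transactivator of class I (−1.49 ± 0.23, edgeR adjusted p = 0.0198), and Psmb9, an immunoproteasome subunit (−1.07 ± 0.17, edgeR adjusted p = 0.0212). H2-K1 was at 1695 and 1713 CPM against 1035 and 1130 CPM and was not called. Cd4 and Lag3, receptors for class II, were tested and not called, and of 3 other class II locus genes none could be tested in macrophages. The class I list had a median of −0.55 and the class II members a median of −1.51. In the other macrophages 4 of the 9 class I genes were lower (5.55% of all genes tested were called lower), Tap1 and Psmb8 along with Nlrc5 and Psmb9, with a median of −0.71. In mature dendritic cells 5 of the 9 were lower (3.18% of all genes tested were called lower), H2-K1, H2-D1, B2m, Nlrc5 and Psmb9, with a median of −0.81, where no class II member was lower.

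The genes whose pattern was most like that of H2-Aa, H2-Ab1, H2-Eb1 and Cd74 were sought over 45 sums of a type in a library (13 types, 9299 genes), by Pearson's r with their mean log2(CPM + 1). Outside the members they were Fgd2 (r = 0.902), Tbc1d9 (0.900), Pld4 (0.880), Ifi30 (0.878), Pkib (0.864), Nckipsd (0.845), Gdi2 (0.842), Prcp (0.841), Rnase6 (0.831) and Hfe (0.826). Of the other members Ciita had an r of 0.930, H2-DMa 0.851, H2-DMb2 0.850, H2-DMb1 0.845, H2-Oa 0.709 and H2-Ob 0.667. Fgd2, Tbc1d9, Pld4, Ifi30 and Pkib thus lay between Ciita and the H2-DM genes. The points share libraries, so these values are descriptions.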

How the data were processed

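Ascites cells were measured in 2 libraries per group. Per the labels, the authors aligned reads to mm10 with Cell Ranger 7.0.0, and the deposited values are filtered UMI counts per gene and barcode, not normalized. A barcode was kept if it had from 100 to 4800 genes and no more than 15% of its UMIs from mitochondria, and those with at least 30% hemoglobin UMIs were set apart. Cell types were gates on summed marker UMIs, adjusted with the counts in view, and their names mean no more than passing the gate. Barcodes that passed gates of several types were dropped as possible doublets, 3100 and 1731 for siCont against 676 and 968 for siFXR1-LNA. No doublet caller was run. Out of 36311 and 25115 kept barcodes for siCont, 4260 and 1778 had no type. For siFXR1-LNA this was 41451 of 54344 and 6332 of 16874. The typed part of a library thus differed with the label, and its part in the levels was not tested. All types but B cells had Cd79a at 0. UMI counts were summed per library and type and tested with edgeR 4.0.16 (TMM, filterByExpr, quasi-likelihood, Benjamini-Hochberg over all genes tested, threshold 0.05) in R 4.3.3, where each library held at least 10 cells. Between labels the model held the label only, between states it held library and state, and interactions held library, type and type by label. CPM divides by all UMIs of a type, hemoglobin included.

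The 10 members were named in every comparison, Fxr1 as the target, and of the pathway lists the genes past the threshold in macrophages. Part of the list of Ciita regulators is not reported here. Others (H2-K1, H2-Eb2, Ifngr1, Ifngr2, Ms4a1, Cd79a, Retnlg and the state genes) were named after their values were seen. Members, lists and comparisons were chosen with earlier results of these data known. Shares and per-cell counts were taken with cells thinned to 1000 UMIs and shallower cells left out. Intervals (exact 95%) and the 3-count limit cover counting error only. The fits were tested on simulated counts. Alternatives were DESeq2 1.42.0, RLE factors, filters, gates, thinning, a replicate block and each library left out.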

Additional observations from a re-analysis of the deposited data

Results flagged for a closer look

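The results flagged here are the differences of the group change between cell types that passed edgeR's quasi-likelihood interaction test. They are log2 differences of the change between libraries labelled siFXR1-LNA and siCont, and a negative value means a lower class II level in the first-named cells beyond that in the second. Between macrophages and B cells they were H2-DMb1 (−1.68) and Ciita (−1.64). Between macrophages and type 2 dendritic cells they were H2-Eb1 (−1.68), Ciita (−1.62), H2-Aa (−1.48), Cd74 (−1.35), H2-Ab1 (−1.34), H2-Oa (−1.19), H2-DMb1 (−1.07) and H2-DMa (−0.86). Between other and Lyve1 macrophages they were Ciita (−2.20), H2-DMb1 (−1.63), H2-Eb1 (−1.51), Cd74 (−1.50), H2-Aa (−1.46), H2-Ab1 (−1.46) and H2-DMa (−1.01). Ciita and H2-DMb1 were the members called in all 3 comparisons. The 3 comparisons share their macrophages, so they are not separate evidence.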

How the results depend on the processing

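Counts of members past the threshold moved as follows. With cells thinned to 1000 UMIs before gating, they were 1 (all macrophages, 9 otherwise), 1 (other macrophages, 8), 4 (Nos2 against other, 8), 6 (Lyve1 against other, 3) and 0 (macrophages against B cells, 2). With no filter on low counts they were 3 (B cells, 0 otherwise), 3 (type 2 dendritic cells, 0), 0 (mature dendritic cells, 1) and 9 (Lyve1 against other, 3). DESeq2 gave 0 in mature dendritic cells (1) and 5 between macrophages and B cells (2). Without the condition on Cd79a, the latter was 4. With macrophages that pass the type 2 dendritic cell gate kept, chosen after seeing the data, Lyve1 against other gave 5. With each library left out in turn, counts ran from 1 to 8 (macrophages), 0 to 7 (other macrophages), 0 to 1 (type 1 and mature dendritic cells), 0 to 2 (type 2 dendritic cells), 7 to 8 (Nos2 against other), 1 to 10 (Lyve1 against other), 2 to 6 (macrophages against B cells), 3 to 8 (against type 2 dendritic cells) and 6 to 7 (other against Lyve1), and stayed at 0 in Lyve1 macrophages and B cells.

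The replicate block gave 3 in B cells (H2-Eb1, H2-DMb2 and Cd74) and moved no other count by over 1.5 times. Deviations of same-numbered libraries correlated at 0.30 in macrophages and 0.02 in Lyve1 macrophages, and with 2 pairs the libraries share only a number. The share of Lyve1 macrophages with at least 10 class II UMIs differed by 3.53 percentage points, from −3.38 to 10.4 with a library left out, the negative value without siFXR1-LNA replicate 2. The same difference ran from −31.8 to −26.8 over all macrophages and from −35.7 to −29.9 in the other macrophages. No called member changed sign: of 1543 values under other settings 1440 kept side and direction, and of 472 with a library left out 355 did. The 71 sign changes were of members not past the threshold. Between-label fits in Nos2 and plasmacytoid dendritic cells, and thinned fits for Lyve1 macrophages, type 2 dendritic cells and their interactions, were not run for lack of cells. In Lyve1 macrophages with 92 and 281 cells, H2-DMb2 and H2-Oa could not be tested. The cause of each move was not tested.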
